A study of Mus musculus with 12 samples.

Results

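Mouse midbrain astrocytes in which PTB was targeted by a hairpin RNA (shPTB), cultured for 2 weeks in medium for neuronal differentiation, were compared with mock astrocytes from the same region. The libraries were chosen by their titles: 2 of shPTB at 2 weeks and 2 of mock, 4 of the 12 libraries of the series. All cultures came from C57BL/6 mice and are labelled astrocytes. The mock cells were in growth medium, so the hairpin and the medium changed together and their effects cannot be told apart. Cortex cultures under the same states (2 mock and 2 shPTB libraries at 2 weeks) and midbrain cultures at 4 weeks of shPTB (2 libraries) were used only to show where the midbrain response at 2 weeks differs. The labels name neither the vector nor the age of the mice, and do not tell whether a group's libraries came from different cultures or mice. The p-values therefore cover the spread between these libraries, which may be technical.

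PTB, the product of Ptbp1, binds RNA and holds back the splicing of neuronal exons in cells that are not neurons. In developing neurons Ptbp1 gives way to its paralogue Ptbp2, and the REST repressor, which silences neuronal genes outside neurons, is one arm of the circuit in which PTB acts. Astrocytes take up glutamate and potassium, couple through connexins and can become reactive. Midbrain dopamine neurons are recognised by the dopamine synthesis and transport genes Th, Ddc, Slc6a3 and Slc18a2 and by the factors Lmx1a, Foxa2, Pitx3, En1 and Nr4a2.

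The 4 libraries held 11272975 and 11385761 reads in mock and 9429980 and 9527843 at 2 weeks. Levels below are in CPM, a library's read counts relative to its depth after scaling by the TMM method, and given per library, mock libraries 1 and 2 first. Changes are log2 fold changes ± standard error, 2 weeks minus mock, with adjusted p-values from edgeR's quasi-likelihood test fitted to all 12 libraries. Of 14607 genes tested, 4470 (30.6%) passed an adjusted p of 0.05, 2317 of them higher (15.9%) and 2153 lower (14.7%). The counts for each gene list below are to be read beside these shares. Both libraries of one group lay above both of the other for 66.3% of the tested genes, so lack of overlap alone says little here. Mitochondrially encoded RNAs took 16.9 and 18.3% of the mock reads and 38.3 and 38.0% of the 2-week reads. Scaled to total reads instead of TMM, the median change of all genes was -0.74 rather than -0.07, every log2 fold change was lower by about that difference, and 1167 genes rose and 5666 fell. All 2153 lower calls were also made with that scaling, and for each group of genes below the number of rises made with both scalings is given. In 32 of the 45 gene lists the falls numbered over 1.5 times as many with that scaling. The mock libraries lay further apart than the 2-week libraries: 12.2% of 7862 genes with at least 5 CPM differed over 2-fold between the mock libraries and 0.496% between the 2-week libraries. Without 2-week library 1 or 2 the calls fell to 1405 and 1434 higher and 1019 and 1044 lower. Where counts are given with each library left out in turn, the order is mock library 1, mock library 2, 2-week library 1 and 2-week library 2. The label was checked against markers of each cell type. All 10 astrocyte markers were detected in both groups. They summed to 11579.7 and 15177 CPM in mock and 8869.9 and 8475 CPM at 2 weeks, and most of each sum was Gfap. Of these 10, 2 rose and 2 fell, with a median log2 fold change of -0.01. The 12 neuronal markers summed to 162 and 185 CPM in mock and 108 and 115 CPM at 2 weeks (1 rose and 3 fell). The 10 microglial markers summed to 1491 and 1897 CPM in mock and 66.1 and 63.1 CPM at 2 weeks (1 rose and 9 fell). The 9 markers of fibroblasts and pericytes summed to 2103 and 2214 CPM in mock and 323 and 336 CPM at 2 weeks (3 rose and 4 fell). The 6 ependymal markers summed to 188 and 151 CPM in mock and 55.0 and 51.5 CPM at 2 weeks (1 rose and 5 fell). The 8 oligodendrocyte markers summed to 216 and 250 CPM in mock and 202 and 191 CPM at 2 weeks (4 rose and 0 fell). For 6 markers of their precursors the sums were 39.3 and 48.8 and then 37.0 and 43.5 CPM (2 rose and 2 fell). For 6 endothelial markers they were 16.3 and 23.4 and then 8.37 and 8.94 CPM (1 rose and 2 fell). In these bulk cultures fewer cells of a type and less RNA per cell cannot be told apart.

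The target of the hairpin fell and its neural paralogue rose. Coordinates are on GRCm38. Ptbp1 (ENSMUSG00000006498.16, chromosome 10, 79854427 to 79864771, plus strand) was at 208 and 249.98 CPM in mock and 105 and 90.8 CPM at 2 weeks (-1.22 ± 0.21, adjusted p = 0.00122). Ptbp2 (ENSMUSG00000028134.11, chromosome 3, 119718742 to 119784466, minus strand) was at 6.46 and 8.15 CPM in mock and 25.9 and 27.6 CPM at 2 weeks (1.87 ± 0.26, adjusted p = 0.000331). Both 2-week libraries lay below the mock libraries for Ptbp1 and above them for Ptbp2, and Ptbp1 still stood at more than 90 CPM. The third paralogue, Ptbp3, was at 12.8 and 13.4 CPM in mock and 12.1 and 12.03 CPM at 2 weeks (-0.12 ± 0.22, adjusted p = 0.701). The call of Ptbp1 ended with an adjusted p of 0.0526 with an offset for transcript length. That offset takes read numbers to grow with transcript length, which reads that lean to 3′ ends, as here, need not do. Of 25 tested PTB proteins and neuronal splicing regulators, 2 rose, 2 of them with both scalings, and 5 fell (4, 7, 2 and 2 fell with each library left out in turn). The other rise was Celf4, an RNA-binding protein of neurons (1.73 ± 0.26, adjusted p = 0.000524), and the largest other fall that met the level rule was Mbnl2, a splicing regulator of the muscleblind family (-1.02 ± 0.16, adjusted p = 0.000876). Of 13 tested genes of the REST complex, 2 fell and none rose (1, 5, 1 and 0 fell with each library left out in turn). The 2 falls, 15.4% of those tested, stand near the 14.7% of all genes that fell. Rest itself was at 7.97 and 3.60 CPM in mock and 2.26 and 2.43 CPM at 2 weeks (-1.30 ± 0.46, adjusted p = 0.0530), and its 2-week libraries lay below both mock libraries without passing the test.

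**Figure D1:**
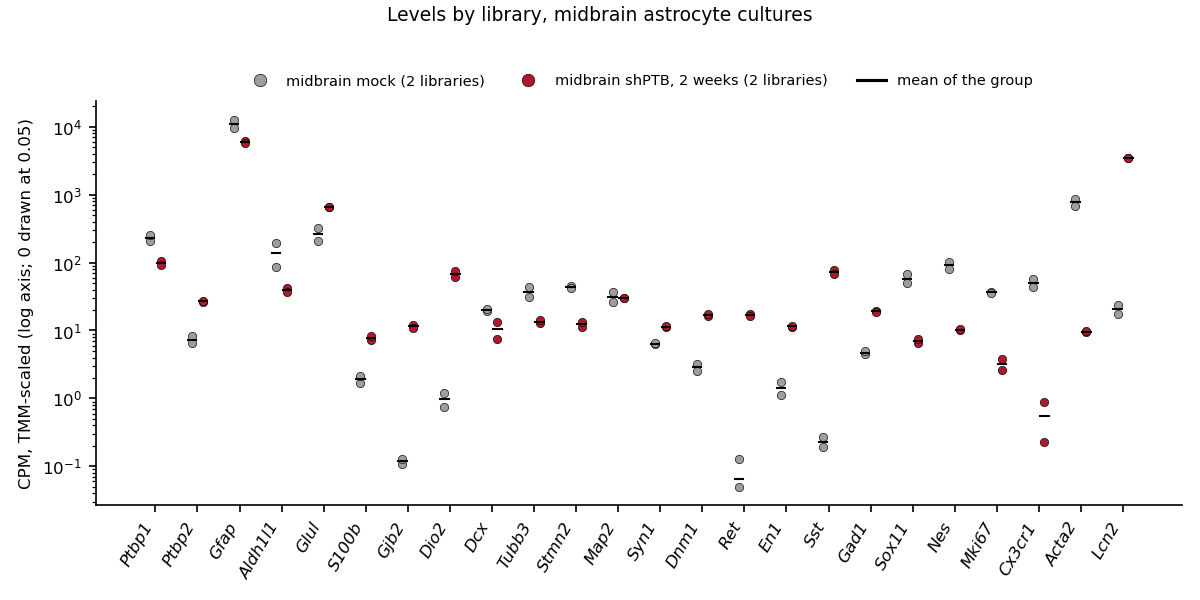
Levels of 24 named genes in the 4 midbrain libraries, in CPM on a log axis. Grey points are the 2 mock libraries, red points the 2 libraries at 2 weeks of shPTB, and black lines the group means. The groups overlap for Map2 alone among the genes shown. Ptbp1 fell, Ptbp2, Ret, Sst and Lcn2 rose, and Dcx, Sox11, Nes, Mki67, Cx3cr1 and Acta2 fell.

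Neuronal cytoskeleton genes moved in both directions. Of 25 tested, 7 rose (4 with both scalings) and 7 fell, with a median of -0.06 beside -0.07 over all genes (-0.42 to -0.06 with 1 library left out). Genes of young neurons were among those that fell. Tubb3, the tubulin used as a neuronal stain, was at 30.7 and 43.9 CPM in mock and 12.9 and 14.1 CPM at 2 weeks (-1.46 ± 0.28, adjusted p = 0.00263, and -2.63 with an offset for transcript length). Stmn2, a stathmin of growing axons, went from 45.3 and 42.8 to 11.4 and 13.2 CPM (-1.83 ± 0.19, adjusted p = 4.33e-05). Dcx, a microtubule protein of migrating neurons, was at 19.4 and 20.9 CPM and then 7.58 and 13.1 CPM (-0.96 ± 0.25, adjusted p = 0.0137). None of the 3 showed overlap between the groups, but the 2-week libraries differed from each other for Dcx, whose call ended with an adjusted p of 0.0665 when only the 4 libraries were fitted and 0.133 without 2-week library 1. Tubb2b, another tubulin of developing neurons (-2.04 ± 0.38, adjusted p = 0.00217), and the ubiquitin hydrolase Uchl1 (-1.58 ± 0.17, adjusted p = 5.07e-05) fell as well. The rises were led by the tubulin Tuba4a, at 8.46 and 15.3 CPM in mock and 169 and 164 CPM at 2 weeks (3.81 ± 0.30, adjusted p = 6.79e-06), and the microtubule protein Map1b (1.71 ± 0.18, adjusted p = 5.00e-05, and 1.05 with an offset for transcript length). Map2, a protein of dendrites, was at 26.0 and 36.7 CPM in mock and 30.1 and 29.9 CPM at 2 weeks (-0.06 ± 0.20, adjusted p = 0.836). The axonal protein gene Mapt was at 84.2 and 116 CPM in mock and 120.2 and 136 CPM at 2 weeks (0.35 ± 0.24, adjusted p = 0.282). Neither passed the test. The neurofilament gene Nefl had 5 reads over both mock libraries and 9 over both 2-week libraries and was not tested.

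For the genes of synaptic vesicles and transmitter release, 8 of 28 rose (6 with both scalings) and 3 fell, with a median of 0.00 (0, 3, 0 and 0 fell with each library left out in turn). Dnm1, the dynamin of vesicle recycling, was at 3.20 and 2.504 CPM in mock and 16.4 and 17.5 CPM at 2 weeks (2.56 ± 0.34, adjusted p = 0.000285). Syt7, a calcium sensor of slow release, went from 8.25 and 10.8 to 53.7 and 48.8 CPM (2.43 ± 0.20, adjusted p = 8.75e-06), and the vesicle fusion protein gene Vamp1 from 8.14 and 14.4 to 53.2 and 48.8 CPM (2.18 ± 0.36, adjusted p = 0.00116). All 3 were higher in both 2-week libraries and kept their calls in every alternative run. The vesicle protein gene Syn1 was at 6.35 and 6.48 CPM and then 11.3 and 11.5 CPM (0.83 ± 0.22, adjusted p = 0.0142), a call that ended with an adjusted p of 0.523 scaled to total reads, 0.0565 when only the 4 libraries were fitted, 0.0552 without mock library 1, 0.0725 without 2-week library 1 and 0.0759 without 2-week library 2. Snap25, a fusion protein of the nerve terminal, was at 0.542 and 0.193 CPM in mock and 0.905 and 0.772 CPM at 2 weeks (1.13 ± 0.66, adjusted p = 0.216). Rbfox3, which encodes the NeuN antigen, was at 0.922 and 1.03 CPM in mock and 1.13 and 0.883 CPM at 2 weeks (0.05 ± 0.53, adjusted p = 0.955). Neither passed the test.

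Neurotransmitter receptors gave 10 rises (7 with both scalings) and 2 falls among 28 tested (8, 8, 5 and 5 rose and 2, 3, 2 and 1 fell with each library left out in turn). Gabra5 (ENSMUSG00000055078.7, chromosome 7, 57407672 to 57510059, minus strand), a GABA-A receptor subunit, was at 0.597 and 1.03 CPM in mock and 72.8 and 72.2 CPM at 2 weeks (6.48 ± 0.35, adjusted p = 5.99e-07). Adra2a, the alpha-2A adrenergic receptor, went from 13.8 and 20.6 to 275 and 282 CPM (4.02 ± 0.31, adjusted p = 6.02e-06), while Chrna4, a nicotinic receptor subunit, fell (-2.62 ± 0.43, adjusted p = 0.00109). Voltage-gated and related channel genes were divided, with 7 rises and 6 falls of 30 tested (4, 5, 3 and 1 rose and 4, 5, 5 and 3 fell with each library left out in turn), and only 1 of the rises was made with both scalings. That gene was Kcnk1, a potassium leak channel, at 57.0 and 70.6 CPM in mock and 645 and 679 CPM at 2 weeks (3.38 ± 0.20, adjusted p = 1.15e-06). The potassium channel Kcnd3 (-2.48 ± 0.39, adjusted p = 0.000778, and -1.53 with an offset for transcript length) and the sodium channel subunit Scn3b (-2.39 ± 0.46, adjusted p = 0.00268) fell.

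Genes tied to midbrain dopamine neurons rose in part, while those of dopamine synthesis and transport did not. Of 20 tested members of the list, 9 rose (7 with both scalings) and 2 fell (2, 2, 0 and 0 fell with each library left out in turn), with a median of 1.23, or 0.56 scaled to total reads. The members that rose were the receptor gene Ret, the transcription factors En1, Foxa1, Lmx1b and Otx2, the monoamine oxidases Maoa and Maob, which break down dopamine and other amines, Aldh1a1 and the calcium-binding protein gene Calb1. The call of Otx2 (0.74 ± 0.21, adjusted p = 0.0213) ended with an adjusted p of 0.837 scaled to total reads, 0.0625 with no count filter, 0.158 with an offset for transcript length, 0.0575 when only the 4 libraries were fitted, 0.0770 without mock library 1, 0.133 without 2-week library 1 and 0.0748 without 2-week library 2. That of Lmx1b ended with an adjusted p of 0.156 scaled to total reads, 0.158 with an offset for transcript length, 0.0976 without mock library 1, 0.112 without 2-week library 1 and 0.0696 without 2-week library 2, and that of Calb1 with an adjusted p of 0.0511 without mock library 2, 0.0605 without 2-week library 1 and 0.0998 without 2-week library 2. These genes are also used by cells other than dopamine neurons. None of the 20 tested members passed the test for a different response in cortex, which 0.685% of all genes passed. Ret (ENSMUSG00000030110.13, chromosome 6, 118151745 to 118197718, minus strand), the GDNF receptor kinase, had 2 reads in the mock libraries together and stood at 17.2 and 16.1 CPM at 2 weeks, 283-fold higher with a 95% counting interval of 77.7 to 2349. En1, a midbrain patterning factor, went from 1.14 and 1.73 to 11.4 and 11.8 CPM (3.02 ± 0.40, adjusted p = 0.000279). Aldh1a1, a retinaldehyde dehydrogenase found in a subset of dopamine neurons, went from 30.3 and 49.3 to 302 and 327 CPM (2.98 ± 0.26, adjusted p = 1.54e-05). The groups did not overlap for any of the 3. The genes of dopamine synthesis and transport were at or near the limit of detection. Th, which encodes tyrosine hydroxylase, had 9 reads in mock and 2 at 2 weeks, Ddc had 4 and 6, and the dopamine transporter gene Slc6a3 had 0 in all 4 libraries. The vesicular monoamine transporter gene Slc18a2 had 40 reads in mock and 0 at 2 weeks, at least 7.02-fold lower when 3 reads over the group are taken as the floor, and its call (adjusted p = 0.0132) ended with an adjusted p of 0.0836 without 2-week library 1 and 0.0849 without 2-week library 2. Lmx1a had 3 and 1 reads, Foxa2 1 and 0 and Pitx3 3 and 0, so none of these factors could be tested at this depth. Nr4a2 was at 0.705 and 0.578 CPM in mock and 1.24 and 1.77 CPM at 2 weeks (1.21 ± 0.50, adjusted p = 0.0865). Summed over 6 defining markers, dopamine neuron genes were at 2.44 and 2.12 CPM in mock and 1.58 and 2.32 CPM at 2 weeks. A count of 0 in a library allows up to 0.339 CPM at this depth, which covers counting error only.

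Patterning factors of both the midbrain and hindbrain and the forebrain included genes that rose. Higher calls made up 31.2% of tested midbrain and hindbrain factors and 26.3% of tested forebrain factors, beside 15.9% of all genes. Lower calls made up 0 and 10.5%, beside 14.7% of all genes. No tested factor of either list passed the test for a different response in cortex. Reads were too few to test 23 of 39 midbrain and hindbrain factors and 9 of 28 forebrain factors. Among midbrain and hindbrain factors, 5 of 16 tested rose (3 with both scalings) and none fell, or 2 scaled to total reads (3, 5, 3 and 3 rose with each library left out in turn), En1 and Otx1 (1.34 ± 0.30, adjusted p = 0.00672) among them. Among forebrain factors, 5 of 19 rose (4 with both scalings) and 2 fell (2, 4, 2 and 3 rose and 3, 3, 1 and 1 fell with each library left out in turn). Dmrta2, a factor of the dorsal forebrain, was at 1.14 and 4.56 CPM in mock and 23.6 and 19.97 CPM at 2 weeks (2.96 ± 0.56, adjusted p = 0.00244). Dlx1, a factor of forebrain interneurons, fell from 13.8 and 22.02 to 4.41 and 3.97 CPM (-2.09 ± 0.35, adjusted p = 0.00116).

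Genes of other transmitter systems included some of the steepest rises. Sst (ENSMUSG00000004366.4, chromosome 16, 23889573 to 23890958, minus strand), which encodes somatostatin, was at 0.271 and 0.193 CPM in mock and 78.1 and 68.7 CPM at 2 weeks (8.21 ± 0.49, adjusted p = 1.04e-06). The calcium-binding protein gene Calb2 went from 1.79 and 2.31 to 104 and 98.9 CPM (5.62 ± 0.30, adjusted p = 5.95e-07). Gad1, which makes GABA from glutamate, went from 4.45 and 4.94 to 19.3 and 18.9 CPM (2.02 ± 0.19, adjusted p = 2.49e-05). The second GABA-synthesis gene, Gad2, was at 2.17 and 2.18 CPM in mock and 3.17 and 1.66 CPM at 2 weeks (0.15 ± 0.43, adjusted p = 0.822), with overlapping groups. In all, 5 of 18 tested GABAergic genes rose (4 with both scalings) and 3 fell (3, 3, 1 and 1 fell with each library left out in turn), with a median of -0.29 that ranged from -0.47 to -0.10 when 1 library was left out. Of 13 glutamatergic genes, 2 rose (1 with both scalings) and 1 fell (0, 3, 0 and 0 fell with each library left out in turn), and the vesicular glutamate transporter gene Slc17a6 had 0 reads in all 4 libraries. Neuropeptide and granin genes gave 8 rises (7 with both scalings) and 2 falls of 18 tested (1, 4, 1 and 0 fell with each library left out in turn), with a median of 0.88 (0.58 to 1.86 with 1 library left out). Penk, the enkephalin precursor, went from 0.488 and 0.449 to 40.7 and 40.1 CPM (6.39 ± 0.29, adjusted p = 2.72e-07). The CART peptide gene Cartpt had 1 read in mock and stood at 6.56 and 6.73 CPM at 2 weeks (226-fold higher, counting interval 39.8 to 9005). Receptors and ligands of the GDNF and neurotrophin families gave 7 rises (5 with both scalings) and 1 fall of 16 tested. Besides Ret, Ntrk3, the neurotrophin-3 receptor (4.51 ± 0.29, adjusted p = 1.71e-06), and Ngfr, the low-affinity neurotrophin receptor, from 0.434 and 0.321 to 7.02 and 6.29 CPM (4.08 ± 0.49, adjusted p = 0.000133), rose.

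Neurogenic transcription factors and the Notch pathway fell where they changed. Of 12 tested neurogenic factors, 5 fell and none rose, with a median of -1.44 (-1.60 to -0.73 with 1 library left out). Sox11 (ENSMUSG00000063632.6, chromosome 12, 27334264 to 27342574, minus strand), a factor of newborn neurons, was at 66.9 and 49.2 CPM in mock and 6.56 and 7.50 CPM at 2 weeks (-3.04 ± 0.27, adjusted p = 1.61e-05). Insm1, a zinc-finger factor of neuronal progenitors, went from 6.46 and 10.5 to 1.02 and 0.883 CPM (-3.13 ± 0.49, adjusted p = 0.000762). Both mock libraries lay above both 2-week libraries for both factors, and Neurod1 had 0 reads throughout. In the Notch pathway 6 of 16 tested genes fell and none rose, with a median of -1.13 (7, 5, 3 and 3 fell with each library left out in turn). They included the ligand gene Dll3, from 37.1 and 65.3 to 2.38 and 1.88 CPM (-4.58 ± 0.49, adjusted p = 5.55e-05), and the effector Hes5 (-2.14 ± 0.38, adjusted p = 0.00171). Neural progenitor genes gave 2 rises (2 with both scalings) and 9 falls of 21 (1, 2, 1 and 1 rose and 8, 7, 5 and 5 fell with each library left out in turn). Nes, the progenitor intermediate filament nestin, went from 101.2 and 81.4 to 10.1 and 10.5 CPM (-3.15 ± 0.22, adjusted p = 3.16e-06), and Sox3 rose (2.03 ± 0.30, adjusted p = 0.000495).

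**Figure D2:**
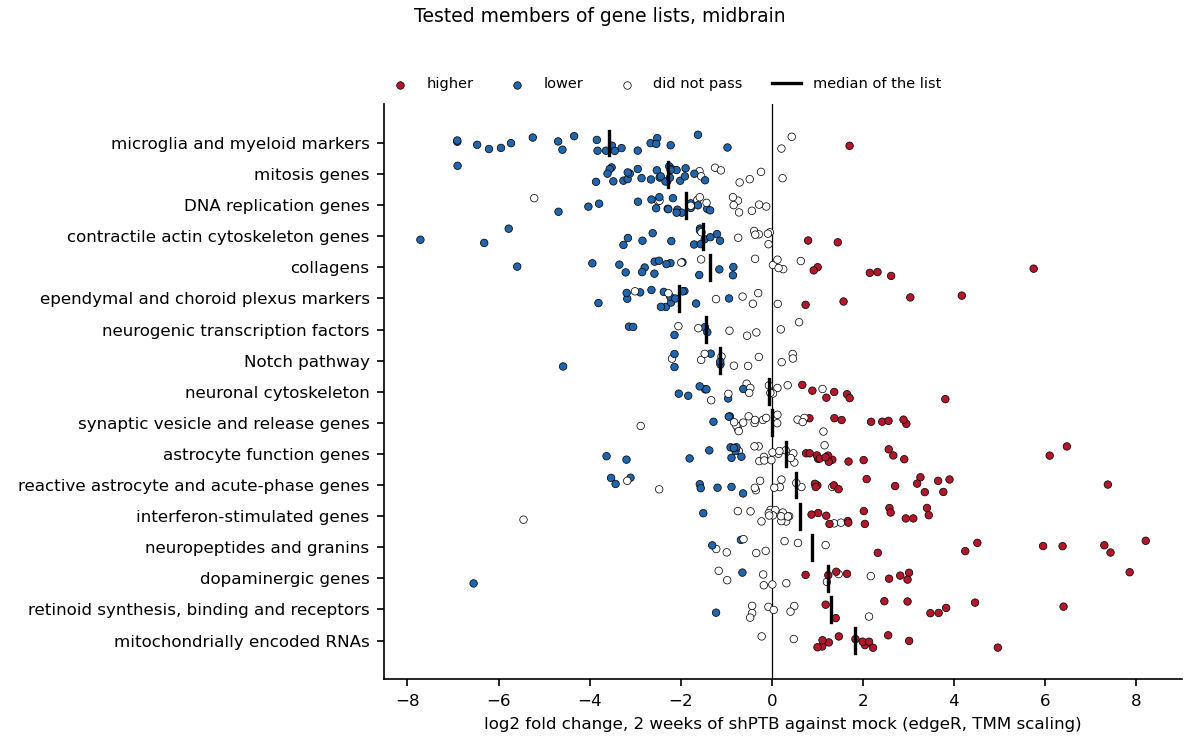
Each point is a tested gene of the list named on the left, placed at its log2 fold change at 2 weeks against mock in midbrain. Red and blue points passed an adjusted p of 0.05 in edgeR as higher and lower, white points did not, and black bars are list medians. Microglia, mitosis and replication genes lie mostly left of 0 and mitochondrially encoded RNAs mostly right of it, while neuronal cytoskeleton and astrocyte genes lie on both sides.

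The astrocyte genes were divided between rises and falls. Of 41 tested, 16 rose (9 with both scalings) and 10 fell, with a median of 0.31 that became -0.37 scaled to total reads (10, 17, 9 and 9 rose and 10, 8, 6 and 5 fell with each library left out in turn). The connexin 26 gene Gjb2 (ENSMUSG00000046352.7, chromosome 14, 57098600 to 57104702, minus strand) was at 0.108 and 0.128 CPM in mock and 12.2 and 11.04 CPM at 2 weeks (6.48 ± 0.36, adjusted p = 7.17e-07). Dio2, the deiodinase that activates thyroid hormone, went from 0.759 and 1.22 to 60.9 and 75.4 CPM (6.10 ± 0.26, adjusted p = 1.68e-07). The connexin 30 gene Gjb6 went from 0.705 and 0.963 to 5.32 and 7.28 CPM (2.91 ± 0.42, adjusted p = 0.000439). These 3 genes, all above the mock libraries in both 2-week libraries, are expressed by mature astrocytes, but which cells carried them here was not tested. In both mock libraries Gjb2 lay under the level of 3 reads (0.163 and 0.193 CPM), so the size of its change is uncertain. S100b, a calcium-binding protein of astrocytes, rose (2.02 ± 0.28, adjusted p = 0.000336), and Glul, the glutamine synthetase, went from 205 and 321 to 662 and 659.8 CPM (1.33 ± 0.29, adjusted p = 0.00526). The call of Glul ended with an offset for transcript length, where its change was 0.16 (adjusted p = 0.514). Other genes fell, and which cells carried these RNAs was not tested. The folate enzyme gene Aldh1l1 was at 193 and 85.5 CPM in mock and 42.7 and 37.2 CPM at 2 weeks (-1.80 ± 0.38, adjusted p = 0.00472), and its call ended with an adjusted p of 0.0516 without 2-week library 2. Without mock library 1 the change of Aldh1l1 was -1.11. Cst3, the secreted protease inhibitor cystatin C, went from 519.7 and 586 to 62.8 and 58.4 CPM (-3.19 ± 0.20, adjusted p = 1.23e-06). Gfap, the astrocyte intermediate filament, was at 9610.4 and 12579.5 CPM in mock and 6203 and 5822 CPM at 2 weeks (-0.88 ± 0.29, adjusted p = 0.0375). The call of Gfap ended with an adjusted p of 0.0786 with an offset for transcript length, 0.0995 when only the 4 libraries were fitted, 0.113 without mock library 2, 0.149 without 2-week library 1 and 0.182 without 2-week library 2.

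The glutamate transporter genes Slc1a2 (0.31 ± 0.16) and Slc1a3 (-0.27 ± 0.16), the connexin 43 gene Gja1 (-0.17 ± 0.25) and the water channel gene Aqp4 (0.15 ± 0.20) did not pass the test, and Aqp4 had the opposite sign in the other scaling (-0.50, adjusted p = 0.0125 scaled to total reads). The glial factor Sox9 was at 355 and 378 CPM in mock and 529 and 514 CPM at 2 weeks (0.51 ± 0.19, adjusted p = 0.0586). Among 20 tested glial transcription factors, 2 rose (1 with both scalings) and 8 fell (6, 9, 4 and 5 fell with each library left out in turn). The nuclear receptor gene Rorb went from 21.4 and 20.4 to 103 and 100.9 CPM (2.28 ± 0.17, adjusted p = 4.71e-06), Sox8 fell (-2.94 ± 0.41, adjusted p = 0.000349), and Id3, an inhibitor of basic helix-loop-helix factors, fell (-2.41 ± 0.43, adjusted p = 0.00171).

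Reactive astrocyte and acute-phase genes included some of the largest rises. Lcn2 (ENSMUSG00000026822.14, chromosome 2, 32384633 to 32388252, minus strand), which encodes the iron-siderophore carrier lipocalin-2, was at 23.5 and 17.5 CPM in mock and 3457 and 3400.0 CPM at 2 weeks (7.38 ± 0.27, adjusted p = 1.60e-07). The complement gene C3 went from 106 and 154 to 1975 and 1917 CPM (3.90 ± 0.28, adjusted p = 2.95e-06). Steap4, a metalloreductase gene, went from 1.84 and 0.770 to 17.8 and 16.001 CPM (3.65 ± 0.33, adjusted p = 1.72e-05). The groups were far apart for each. Other members of the list fell, among them the small heat-shock protein gene Hspb1 (-3.53 ± 0.23, adjusted p = 1.80e-06, and -1.52 with an offset for transcript length), which shares 27.0% of its 3′ end with the gene Hsp25-ps1, and the hyaluronan receptor gene Cd44, from 121 and 172 to 60.7 and 67.8 CPM (-1.19 ± 0.23, adjusted p = 0.00253). In total 14 of 33 tested rose (11 with both scalings) and 8 fell (9, 5, 4 and 5 fell with each library left out in turn).

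Interferon-stimulated genes rose more often than they fell. Of 32 tested, 14 rose (11 with both scalings) and 1 fell, shares of 43.8 and 3.12% beside 15.9 and 14.7% of all genes (12, 12, 9 and 11 rose and 1, 1, 0 and 0 fell with each library left out in turn). Ifit1, an antiviral RNA-binding protein, was at 3.69 and 3.02 CPM in mock and 36.5 and 35.1 CPM at 2 weeks (3.41 ± 0.20, adjusted p = 9.53e-07). Usp18, a protease that removes the ubiquitin-like modifier ISG15 and dampens interferon signalling, went from 0.922 and 2.18 to 12.3 and 14.2 CPM (3.11 ± 0.37, adjusted p = 0.000132), and the membrane protein gene Ifitm1 from 21.6 and 21.3 to 232 and 237 CPM (3.45 ± 0.19, adjusted p = 7.17e-07, with 26.6% of its 3′ end shared with other genes). No overlap was seen for the 3. Genes of MHC class I antigen presentation gave 6 rises (5 with both scalings) and 1 fall of 21 (2, 1, 1 and 1 fell with each library left out in turn), with H2-K1 going from 50.7 and 80.5 to 182 and 184 CPM (1.48 ± 0.31, adjusted p = 0.00487). The summed microglial markers given above, from cells that also express such genes, were lower at 2 weeks. Which cells carried the interferon and MHC class I RNAs was not tested.

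The promoters of these genes hold the interferon-stimulated response element more often than promoters at large. Windows of 300 bases, 250 before to 50 after each start in RefSeq on GRCm38.p6, were searched on both strands for GAAA, any 2 bases and GAAA again. The element was in 16 of the 28 members with a promoter in the table (57.1%), in 3.99% of the 27025 genes in it and in 3.44% of its 32851 promoters. Among the 13 matched members that passed the test in either direction 8 had it, and among the 12 that did not 6 had it. The 150 bases before the start of Ifit1 (GRCm38.p6 chr19:34640739-34640888, plus strand) show it as a pair of copies, written in capitals as the reverse complement.
Ifit1: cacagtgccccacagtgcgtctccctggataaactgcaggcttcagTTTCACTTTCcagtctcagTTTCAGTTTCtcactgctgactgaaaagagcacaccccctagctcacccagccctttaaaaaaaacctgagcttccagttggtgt

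Genes of cell division fell together. Of 36 tested mitosis genes, 28 fell and none rose, with a median of -2.27, and of 32 DNA replication genes 18 fell and none rose, with a median of -1.88 (-1.78 with genes at 0 reads at their bound). With each library left out in turn, 24, 29, 19 and 23 mitosis genes fell and 18, 18, 12 and 11 replication genes fell. The proliferation marker Mki67 (ENSMUSG00000031004.8, chromosome 7, 135689784 to 135716361, minus strand) was at 37.1 and 36.0 CPM in mock and 2.60 and 3.75 CPM at 2 weeks (-3.52 ± 0.36, adjusted p = 4.18e-05). Its 3′ end is shared for 21.9% with a second annotated gene. Kif11, a spindle motor (-3.56 ± 0.64, adjusted p = 0.00302), Cenpe, a kinetochore motor (-3.48 ± 0.50, adjusted p = 0.000463), Mcm6, a subunit of the replicative helicase (-4.68 ± 0.53, adjusted p = 8.82e-05), and Tk1, thymidine kinase (-4.03 ± 0.57, adjusted p = 0.000389), fell to under 1.2 CPM in both 2-week libraries. Among CDK inhibitors, D cyclins and RB family genes, 9 of 22 fell and 1 rose, 0 with both scalings (1, 2, 1 and 0 rose and 7, 8, 5 and 5 fell with each library left out in turn), with the CDK inhibitor gene Cdkn2c going from 7.87 and 11.3 to 2.94 and 3.20 CPM (-1.64 ± 0.32, adjusted p = 0.00294).

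The cell cycle homology region (TTTGAA) was in 23 of 32 matched mitosis genes (71.9%), beside 20.2% of all genes and 17.9% of all promoters in the table, and the CCAAT box was also in 23 of 32, beside 41.1% of genes and 37.4% of promoters. The E2F motif (TTTCCCGC or TTTGGCGC) was in 11 of 28 matched replication genes (39.3%), beside 1.80% of genes and 1.56% of promoters. A match is a stretch of letters and no measure of binding. In the mitosis list 18 of 25 matched members that fell had TTTGAA, as had 4 of 6 that did not pass, and the CCAAT box was in 19 of those 25 and 3 of those 6. In the replication list 8 of 16 matched members that fell had the E2F motif, as had 2 of 10 that did not pass. The 150 bases before the starts of Mki67 (chr7:135716380-135716529, minus strand) and Kif11 (chr19:37376232-37376381, plus strand) carry TTTGAA or its reverse complement in capitals, and those of Mcm6 (chr1:128359706-128359855, minus strand) carry 2 copies of TTTGGCGC, all on GRCm38.p6. They are shown as examples of falling genes with the motif.
Mki67: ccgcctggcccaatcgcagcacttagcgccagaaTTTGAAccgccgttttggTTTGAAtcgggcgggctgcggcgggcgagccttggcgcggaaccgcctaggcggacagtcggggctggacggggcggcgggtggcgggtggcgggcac
Kif11: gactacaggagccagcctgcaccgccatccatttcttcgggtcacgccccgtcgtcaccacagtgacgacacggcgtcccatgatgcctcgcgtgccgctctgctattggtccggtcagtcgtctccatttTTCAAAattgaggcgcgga
Mcm6: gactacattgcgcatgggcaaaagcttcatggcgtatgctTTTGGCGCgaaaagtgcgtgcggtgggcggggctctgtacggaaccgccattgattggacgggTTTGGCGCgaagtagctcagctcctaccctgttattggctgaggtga

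Of the 45 lists, microglial markers had the lowest median. Of 26 tested, 23 fell and 1 rose, with a median of -3.58. Cx3cr1 (ENSMUSG00000052336.7, chromosome 9, 119901616 to 120069879, minus strand), the fractalkine receptor, was at 43.6 and 57.6 CPM in mock and 0.226 and 0.883 CPM at 2 weeks (-6.47 ± 0.54, adjusted p = 9.53e-06). C1qc, a subunit of complement C1q (-6.91 ± 0.35, adjusted p = 4.22e-07), and the microglial receptor gene Fcrls (-6.91 ± 0.33, adjusted p = 3.28e-07), fell from more than 90 CPM in both mock libraries to under 2 CPM in both 2-week libraries. The one marker that rose was P2ry12, a purinergic receptor, at 1.46 and 3.72 CPM and then 7.13 and 9.71 CPM (1.71 ± 0.46, adjusted p = 0.0158). Its call ended with an adjusted p of 0.0521 scaled to total reads, 0.591 with an offset for transcript length, 0.0850 without mock library 1 and 0.107 without 2-week library 2.

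Contractile, collagen and matrix genes fell more often than they rose, each with members that went the other way. Acta2 (ENSMUSG00000035783.9, chromosome 19, 34241090 to 34255590, minus strand), smooth muscle actin, was at 862 and 670.1 CPM in mock and 9.51 and 9.71 CPM at 2 weeks (-6.32 ± 0.25, adjusted p = 1.68e-07). Tagln, an actin-bundling protein of contractile cells, went from 43.3 and 37.7 to 0.679 and 0.772 CPM (-5.78 ± 0.40, adjusted p = 2.56e-06), and the tropomyosin gene Tpm2 fell (-3.26 ± 0.34, adjusted p = 4.83e-05, and -1.77 with an offset for transcript length). Of 26 tested contractile genes, 16 fell and 2 rose (1 with both scalings), and the calponin gene Cnn1 was one of those that rose (1.45 ± 0.17, adjusted p = 8.91e-05). Of 30 collagens, 16 fell and 6 rose (4 with both scalings). Col6a2, a chain of the microfibrillar collagen VI, went from 237 and 285 to 24.8 and 26.5 CPM (-3.35 ± 0.23, adjusted p = 2.65e-06). In the opposite direction, the fibrillar chain Col11a2 went from 9.71 and 17.7 to 83.3 and 85.0 CPM (2.62 ± 0.25, adjusted p = 2.51e-05). Other matrix proteins and crosslinkers gave 21 falls and 7 rises of 44 tested, with 1 rise made with both scalings. The proteoglycan gene Bgn (-6.28 ± 0.54, adjusted p = 1.25e-05) and the elastin gene Eln, from 107 and 102 to 3.17 and 4.63 CPM (-4.74 ± 0.36, adjusted p = 5.12e-06), were among the largest falls. With each library left out in turn, 15, 14, 11 and 12 collagens, 20, 19, 16 and 15 matrix genes and 14, 16, 13 and 13 contractile genes fell. The rises of matrix genes then numbered 5, 7, 3 and 4, and those of contractile genes 1, 2, 1 and 1.

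Other cell types were represented by lists that did not move as one. Of 24 tested fibroblast and pericyte markers, 10 rose (8 with both scalings) and 8 fell. The forkhead factor Foxc1 went from 35.3 and 70.4 to 162 and 168 CPM (1.64 ± 0.36, adjusted p = 0.00550, and 2.59 with an offset for transcript length) and Slc6a13, a GABA and taurine transporter of the meninges, from 0.0542 and 0.321 to 6.22 and 6.84 CPM (5.10 ± 0.69, adjusted p = 0.000308), while S100a4 fell (-3.39 ± 0.25, adjusted p = 3.57e-06), with 58.1% of its 3′ end shared with a second gene. Summed over 9 defining markers, which include collagen and contractile genes, this class had the level given at the start, lower at 2 weeks. Of these 9, 3 rose and 4 fell. Summed over all 25 members of the list, the class was at 2187 and 2667 CPM in mock and 2212 and 2179 CPM at 2 weeks. The part of this class in the falls of collagen and contractile genes was not tested. Ependymal and choroid plexus markers gave 15 falls and 4 rises (2 with both scalings) of 26 (3, 3, 2 and 2 rose with each library left out in turn). The cilium assembly gene Ccdc40 fell from 19.5 and 19.0 to 2.04 and 2.21 CPM (-3.17 ± 0.28, adjusted p = 1.59e-05), and Ttr, the thyroxine carrier of choroid plexus, rose from 1.30 and 1.22 to 22.2 and 23.8 CPM (4.17 ± 0.24, adjusted p = 8.51e-07). Oligodendrocyte and precursor markers gave 8 rises (7 with both scalings) and 3 falls of 16, with no member that rose above 15 CPM in any of the 4 libraries. Bcas1, a gene of early myelinating cells, went from 0.488 and 1.41 to 12.8 and 14.3 CPM (3.85 ± 0.41, adjusted p = 5.51e-05), whereas the precursor genes Cspg4 (-4.14 ± 0.53, adjusted p = 0.000198) and Olig2 (-1.38 ± 0.27, adjusted p = 0.00310) fell and the myelin gene Mbp stood at 3.31 and 3.92 CPM in mock and 4.30 and 4.08 CPM at 2 weeks (0.22 ± 0.22, adjusted p = 0.478). Endothelial markers gave 3 rises (2 with both scalings) and 2 falls of 10 (1, 2, 2 and 3 rose with each library left out in turn).

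**Figure D3:**
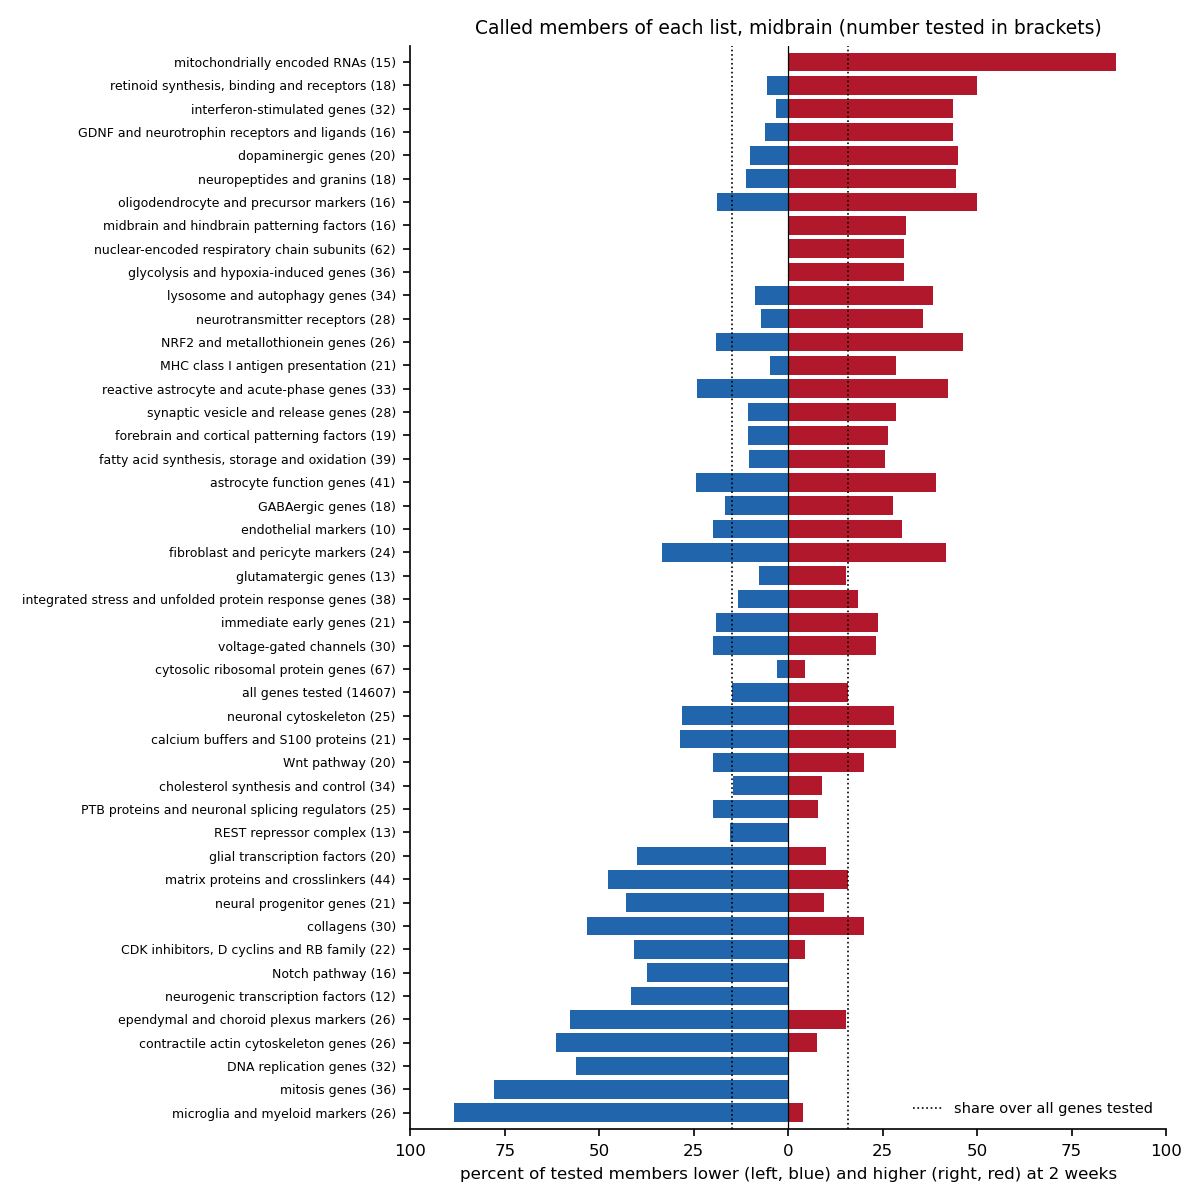
Share of the tested members of each of the 45 gene lists that passed the edgeR test as lower (blue, left) or higher (red, right) at 2 weeks in midbrain, with the number tested in brackets. Dotted lines mark the shares over all 14607 genes, 14.7% lower and 15.9% higher. The longest bars are the lower members of the microglia list (88.5%) and the higher members of the mitochondrially encoded RNAs (86.7%).

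Mitochondrially encoded RNAs rose as a class: 13 of 15 passed as higher (12 with both scalings) and none as lower, with a median of 1.84, or 1.19 scaled to total reads. The count was 13 with any of the 4 libraries left out. The complex I subunit mt-Nd3 was at 369 and 815 CPM in mock and 3525 and 3442 CPM at 2 weeks (2.56 ± 0.47, adjusted p = 0.00220), though 98.1% of its sequence is shared with the gene Gm28438. Nuclear-encoded subunits of the respiratory chain moved less. Of 62, 19 rose and none fell (9 scaled to total reads), with a median of 0.26, but 3 rises were made with both scalings, the median was -0.41 scaled to total reads, and 13, 21, 6 and 7 rose and 0, 6, 0 and 0 fell with each library left out in turn. Ndufa5, a subunit of complex I, went from 54.5 and 79.7 to 170.0 and 179.7 CPM (1.38 ± 0.30, adjusted p = 0.00563). Cytosolic ribosomal protein genes had a median of 0.02, with 3 rises (1 with both scalings) and 2 falls (37 scaled to total reads) of 67 (3, 8, 2 and 1 rose and 0, 20, 0 and 0 fell with each library left out in turn). The largest of these, Rpl5 (from 1.46 and 5.20 to 149 and 127 CPM), is uncertain, since the gene Gm15500, whose whole 3′ end is found in Rpl5, went from 122 and 132 to 5.21 and 21.1 CPM.

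Glycolysis and hypoxia-induced genes gave 11 rises (6 with both scalings) and no fall among 36 tested (0, 2, 0 and 0 fell with each library left out in turn). Scaled to total reads 12 of them fell, with a median of -0.09 beside 0.56 with TMM. Stc1 (ENSMUSG00000014813.9, chromosome 14, 69029238 to 69041804, plus strand), which encodes the secreted hormone stanniocalcin-1, was at 3.15 and 2.70 CPM in mock and 226 and 205 CPM at 2 weeks (6.19 ± 0.23, adjusted p = 1.60e-07). Car9, a carbonic anhydrase induced in hypoxia, went from 2.71 and 4.24 to 65.1 and 62.0 CPM (4.20 ± 0.32, adjusted p = 5.69e-06). The glucose transporter gene Slc2a1 went from 14.9 and 30.4 to 92.4 and 87.9 CPM (2.00 ± 0.36, adjusted p = 0.00200). The groups were separate for all 3. Among NRF2 targets and metallothioneins, 12 of 26 rose (7 with both scalings) and 5 fell (0, 6, 0 and 0 fell with each library left out in turn), with the sulfiredoxin gene Srxn1 (1.74 ± 0.17, adjusted p = 3.19e-05) and the heme oxygenase gene Hmox1 (1.77 ± 0.31, adjusted p = 0.00164) among the rises. In the integrated stress and unfolded protein response list 7 of 38 rose (3 with both scalings) and 5 fell (6, 10, 4 and 3 rose and 5, 5, 3 and 1 fell with each library left out in turn). These shares of the stress list, 18.4% higher and 13.2% lower, lay near the 15.9 and 14.7% of all genes. The cystine transporter gene Slc7a11 went from 4.39 and 3.79 to 19.8 and 22.95 CPM (2.38 ± 0.22, adjusted p = 1.97e-05). Lysosome and autophagy genes gave 13 rises (7 with both scalings) and 3 falls of 34 (8, 12, 7 and 7 rose and 4, 8, 2 and 1 fell with each library left out in turn), led by the proton pump subunit Atp6v0d2 (2.85 ± 0.27, adjusted p = 2.36e-05).

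Lipid genes moved singly rather than as lists. Of 39 tested genes of fatty acid metabolism, 10 rose (4 with both scalings) and 4 fell (7, 8, 7 and 5 rose and 2, 7, 1 and 2 fell with each library left out in turn). The malic enzyme gene Me1 went from 25.4 and 32.9 to 133 and 131 CPM (2.18 ± 0.20, adjusted p = 2.03e-05). The lipoprotein lipase gene Lpl went from 17.7 and 18.3 to 1.36 and 0.772 CPM (-4.07 ± 0.30, adjusted p = 3.97e-06). Of 34 cholesterol genes, 3 rose (1 with both scalings) and 5 fell, shares below or at those of all genes (1, 7, 1 and 1 rose and 4, 6, 1 and 2 fell with each library left out in turn). The sterol regulator Insig1 rose (1.67 ± 0.26, adjusted p = 0.000730) and the sterol exporter Abcg1 fell (-3.67 ± 0.54, adjusted p = 0.000505). Retinoid genes rose more often: 9 of 18 passed as higher (8 with both scalings) and 1 as lower (1, 1, 0 and 0 fell with each library left out in turn), with a median of 1.29. Stra6, the cell-surface receptor for retinol-binding protein, was at 1.74 and 2.05 CPM in mock and 25.5 and 28.6 CPM at 2 weeks (3.83 ± 0.36, adjusted p = 2.40e-05). Aldh1a2, a retinaldehyde dehydrogenase that makes retinoic acid, went from 1.74 and 2.38 to 23.1 and 22.95 CPM (3.48 ± 0.23, adjusted p = 2.14e-06). Crabp2, a carrier of retinoic acid, went from 0.488 and 0.128 to 6.79 and 7.83 CPM (4.47 ± 0.50, adjusted p = 7.99e-05). The member that fell was Crabp1, another carrier of retinoic acid, from 426 and 637 to 242 and 213 CPM (-1.22 ± 0.30, adjusted p = 0.0102), and its call ended with an adjusted p of 0.487 with an offset for transcript length, 0.0576 without 2-week library 1 and 0.0866 without 2-week library 2. Calcium buffers and S100 proteins gave 6 rises (3 with both scalings) and 6 falls of 21 (5, 4, 3 and 3 rose with each library left out in turn). Wnt pathway genes gave 4 rises (2 with both scalings) and 4 falls of 20 (3, 3, 2 and 2 rose and 3, 7, 3 and 2 fell with each library left out in turn), and immediate early genes 5 rises (2 with both scalings) and 4 falls of 21 (5, 5, 1 and 2 rose and 3, 3, 2 and 2 fell with each library left out in turn).

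Over all protein-coding genes with at least 10 CPM in the higher group, the largest rise was that of Sprr2b, a small proline-rich protein of barrier epithelia, from 0 reads in mock to 13.9 and 12.5 CPM at 2 weeks (at least 149-fold higher). Its 3′ end is shared for 25.3% with related genes. Reg3g (ENSMUSG00000030017.2, chromosome 6, 78466269 to 78468872, minus strand), a secreted C-type lectin, was at 0.380 and 0.835 CPM in mock and 345 and 319 CPM at 2 weeks (9.10 ± 0.44, adjusted p = 3.28e-07). The amino acid transporter gene Slc6a20a had 3 reads in mock and stood at 36.3 and 39.5 CPM at 2 weeks (430.1-fold higher, counting interval 147 to 2091). Hhip, a Hedgehog-binding protein, went from 0.542 and 0.514 to 45.3 and 53.1 CPM (6.50 ± 0.32, adjusted p = 3.44e-07) and Inmt, an amine methyltransferase, from 1.52 and 3.66 to 219.5 and 212 CPM (6.39 ± 0.40, adjusted p = 1.23e-06). Sst, Ret, Lcn2, Gjb2 and Gabra5 made up the rest of the 10 largest rises. Of the 10 largest falls, 6 were microglia genes (Fcrls, C1qc, Cx3cr1, C1qa, Mpeg1 and Aif1) and 4 were matrix or contractile genes (Mfap4, Acta2, Bgn and Tagln). Mfap4, a microfibril-associated protein, went from 38.2 and 36.8 to 0.566 and 0.331 CPM (-6.35 ± 0.31, adjusted p = 3.46e-07).

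The response at 2 weeks differed between midbrain and cortex for 100 genes (0.685% of those tested), 62 with a higher value in midbrain (0.424%) and 38 with a lower one (0.26%). Without 2-week library 1 or 2 of midbrain the count was 36 and 33. It was 34 when only the 8 libraries of the comparison were fitted, 48 with an offset for transcript length, 62 in limma with library weights, 168 in DESeq2 and 318 with no count filter. With a replicate block within mock it was 1751, and same-numbered mock libraries of the regions correlated (r = 0.715 over genes). These values are differences of 2 log2 fold changes, tested as an interaction. Reg3g had the largest difference with a higher value in midbrain: it went from 6.45 and 10.9 to 30.9 and 27.8 CPM in cortex, beside the midbrain levels given above (difference 7.33 ± 0.51, adjusted p = 0.000117). Inmt went from 5.64 and 9.87 to 26.0 and 27.9 CPM in cortex (difference 4.58 ± 0.48, adjusted p = 0.00112), and the matrix protein gene Spon2 from 1.68 and 2.31 to 50.1 and 50.3 CPM in midbrain but from 16.9 and 20.8 to 38.8 and 36.0 CPM in cortex (difference 3.66 ± 0.28, adjusted p = 0.000175). In each case the 2-week levels of both regions lay above their mock levels, and the cortex mock level was higher than the midbrain mock level. Car9 stood at 5.35 and 6.29 CPM in cortex mock and 9.36 and 7.95 CPM in cortex at 2 weeks, beside the rise in midbrain given above (difference 3.62 ± 0.44, adjusted p = 0.00320). Stra6 was at 11.04 and 23.6 CPM in cortex mock and 20.8 and 20.8 CPM in cortex at 2 weeks, where the groups overlapped (difference 3.56 ± 0.47, adjusted p = 0.00530), and Ifitm1 at 21.5 and 28.3 CPM and then 50.4 and 50.6 CPM (difference 2.43 ± 0.26, adjusted p = 0.00112). The reverse held for the myelin basic protein gene Mbp, which did not pass the test in midbrain and went from 1.28 and 1.59 to 34.6 and 42.2 CPM in cortex (difference -4.53 ± 0.32, adjusted p = 0.000117). Fbln5, an elastic fibre protein (4.65 and 5.49 to 82.6 and 83.3 CPM in cortex, difference -3.07 ± 0.25, adjusted p = 0.000204), and Fam20a, a secretory pathway pseudokinase (3.60 and 3.98 to 161 and 142 CPM in cortex, difference -3.25 ± 0.27, adjusted p = 0.000204), had a smaller change in midbrain (0.97 ± 0.17, adjusted p = 0.00138 for Fbln5 and 2.07 ± 0.19, adjusted p = 1.72e-05 for Fam20a). The midbrain call of Fbln5 ended scaled to total reads, where its change was 0.30 (adjusted p = 0.0778). None of these 9 differences lost its call in the alternatives run.

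**Figure D4:**
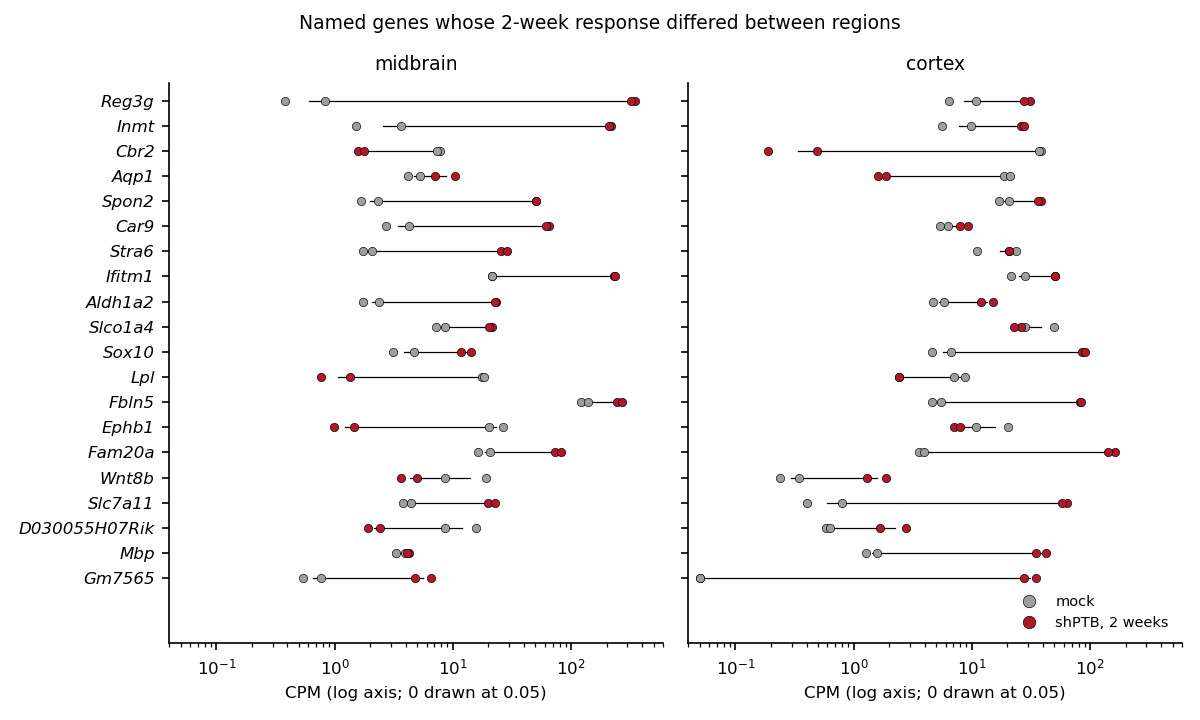
Levels of the 20 named genes whose 2-week response differed between midbrain (left) and cortex (right), in CPM on a log axis, sorted by the difference with the largest at the top. Grey points are mock libraries, red points libraries at 2 weeks, and lines join the group means. Reg3g and Inmt moved further in midbrain, and Mbp passed the test for a difference with a larger change in cortex.

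Between 2 and 4 weeks of shPTB in midbrain, 388 genes differed (2.66%), 140 higher at 4 weeks (0.958%) and 248 lower (1.7%). The comparison shares the 2-week libraries with the comparison against mock. Its fit also shares a common estimate of the spread with the mock libraries. Of genes with at least 5 CPM, 12.2% differed over 2-fold between the midbrain mock libraries, 0.496% at 2 weeks and 0.611% at 4 weeks. A gene that did not pass here may therefore still have changed. Without 2-week library 1 or 2 only 38 and 52 genes passed, while 860 passed with no count filter, 3379 in limma with library weights, 3607 with a replicate block within mock and 3903 when only the libraries of those groups were fitted. Ptgds, a prostaglandin D synthase, was higher again, going from 509 and 542 CPM at 2 weeks to 2884 and 2751 CPM at 4 weeks (2.42 ± 0.19, adjusted p = 0.000272), after 119 and 99.1 CPM in mock. Dcx was lower again, at 1.24 and 0.803 CPM (-3.33 ± 0.34, adjusted p = 0.00117), and both calls held in every alternative. Tubb3 was lower at 4 weeks as well, at 4.42 and 3.08 CPM (-1.85 ± 0.32, adjusted p = 0.0170). Aldh1a1 reached 859 and 886 CPM (1.47 ± 0.25, adjusted p = 0.0166), the retinaldehyde-binding protein gene Rlbp1 went from 90.4 and 89.5 to 368 and 352 CPM (2.00 ± 0.32, adjusted p = 0.0129), and Ifit1 reached 83.2 and 86.4 CPM (1.24 ± 0.18, adjusted p = 0.00746). Reg3g moved back towards its mock level, to 128 and 115 CPM (-1.45 ± 0.29, adjusted p = 0.0271), and so did Ngfr, to 1.11 and 0.402 CPM (-3.13 ± 0.51, adjusted p = 0.0135). The adjusted p of Tubb3 became 0.106 without 2-week library 1 and 0.132 without 2-week library 2, that of Aldh1a1 0.170 without 2-week library 1 and 0.144 without 2-week library 2, that of Rlbp1 0.0637 with an offset for transcript length, 0.144 without 2-week library 1 and 0.144 without 2-week library 2, that of Ifit1 0.101 without 2-week library 1 and 0.110 without 2-week library 2, that of Reg3g 0.0914 with an offset for transcript length, 0.203 without 2-week library 1 and 0.180 without 2-week library 2, and that of Ngfr 0.106 without 2-week library 1 and 0.0750 without 2-week library 2. Ptbp1 stood at 169 and 155 CPM at 4 weeks, above both 2-week libraries without passing (0.73 ± 0.20, adjusted p = 0.0904), and Ptbp2 at 23.8 and 25.4 CPM (-0.12 ± 0.25, adjusted p = 0.853).

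**Figure D5:**
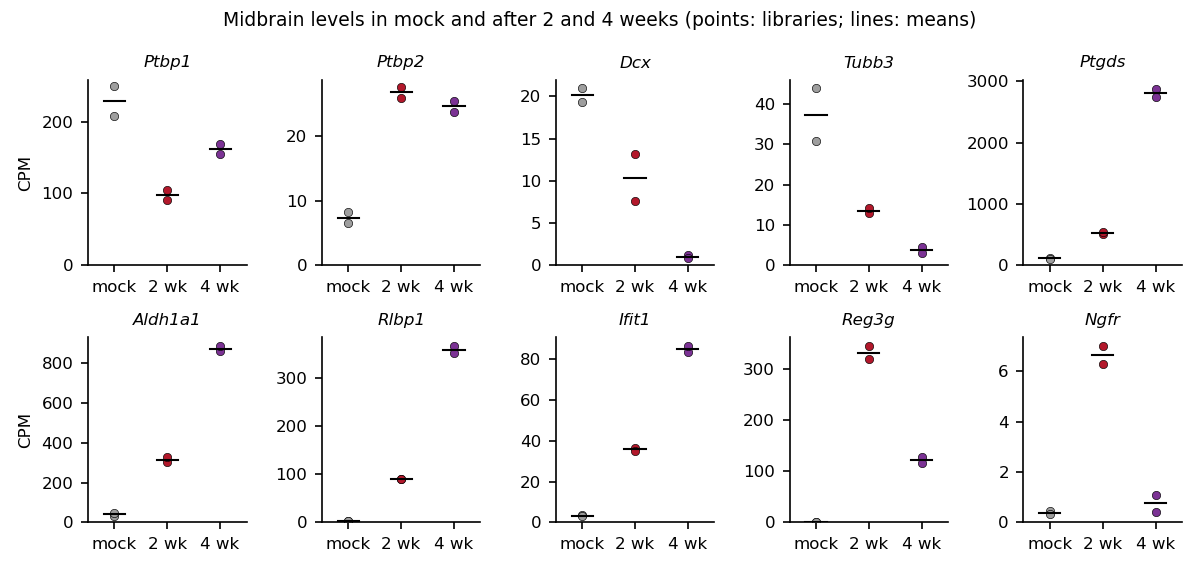
Levels in CPM of 10 genes in the midbrain libraries of mock, 2 weeks and 4 weeks of shPTB, each panel with its own axis from 0. Points are libraries and lines means of 2. Ptgds, Aldh1a1, Rlbp1 and Ifit1 were highest at 4 weeks, Reg3g and Ngfr at 2 weeks, and Dcx and Tubb3 in mock.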

How the data were processed

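RNA from mouse astrocyte cultures was copied with a biotinylated oligo(dT)-type primer, so reads lean to 3′ ends, per the labels' protocols; no molecular identifiers were used there. The deposited files give, per transcript, estimated counts and TPM made by the authors with Salmon 0.14.1 after cutadapt 2.3 on mm10, per the submitters' processing notes. Which annotation release they used is not given in the sources. Estimated counts were summed per gene over GENCODE M21 (0.0559 to 0.129% of reads in the 4 libraries matched no gene) and rounded; TPM was not used. edgeR 4.0.16 (R 4.3.3) fitted all 12 libraries as 6 groups with TMM, filterByExpr (minimum counts 10 and 15) and 6 residual degrees of freedom; adjustment was Benjamini-Hochberg at 0.05. DESeq2 1.42.0, limma 3.58.1 and other settings were alternatives, and the fit was tested on simulated data. Depth was 9429980 to 11385761 reads per library, and 3 reads, the limit taken for a count of 0, are 0.163 to 0.339 CPM; limits and 95% counting intervals cover counting error only.

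Named genes were a fixed set of markers, up to 3 called members per list and direction with the largest change, a mean of 5 CPM or more in one group and libraries that do not overlap, the 10 largest rises and falls of protein-coding genes at 10 CPM, and the 6 largest values per direction for the cortex and 4-week comparisons; lists are described by all members. Results of some genes that these rules reach are not reported here. The members and the 45 lists were chosen with earlier results of these data known. Sharing of 3′ ends counts runs of 31 bases from the final 500 bases of transcripts that another gene also holds.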

Additional observations from a re-analysis of the deposited data

Results flagged for a closer look

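For 20 named genes the change from mock to 2 weeks differed between midbrain and cortex in the test of the difference itself (edgeR, adjusted p under 0.05). Values are midbrain minus cortex on the log2 scale, and no explanation was tested. Among those already described, the differences were 7.33 for Reg3g, 4.58 for Inmt, 3.66 for Spon2, 3.62 for Car9, 3.56 for Stra6, 2.43 for Ifitm1, -4.53 for Mbp, -3.07 for Fbln5 and -3.25 for Fam20a.

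The difference was 4.55 for Cbr2, a carbonyl reductase gene, which fell from 7.81 and 7.38 to 1.58 and 1.77 CPM in midbrain and went from 38.6 and 37.2 to 0.187 and 0.487 CPM in cortex. Those cortex levels at 2 weeks lay at or under the level of 3 reads (0.562 and 0.487 CPM), so the size of the difference is uncertain. The 3′ end of Cbr2 is shared for 42.1% with the gene Gm11771. The difference was 4.39 for the water channel gene Aqp1, which went from 4.18 and 5.26 to 10.5 and 7.06 CPM in midbrain and from 18.6 and 20.9 to 1.87 and 1.62 CPM in cortex. The midbrain change of Aqp1 (0.90 ± 0.26, adjusted p = 0.0213) lost its call in 7 of the 15 alternatives, with adjusted p-values from 0.068 to 0.465. The retinoic acid enzyme gene Aldh1a2 had a difference of 2.12, with 4.71 and 5.81 and then 14.98 and 12.01 CPM in cortex (adjusted p = 0.0124, and 0.118 with an offset for transcript length, 0.150 in limma with library weights, 0.111 when only the 8 libraries were fitted, 0.0674 without 2-week library 1 and 0.0654 without 2-week library 2). Slco1a4, an organic anion transporter gene, had 2.05, with 8.63 and 7.25 and then 21.5 and 20.1 CPM in midbrain and 49.6 and 27.9 and then 26.2 and 22.9 CPM in cortex (adjusted p = 0.0266, and 0.0981 scaled to total reads, 0.171 with an offset for transcript length, 0.160 when only the 8 libraries were fitted, 0.0570 without mock library 2, 0.139 without 2-week library 1 and 0.123 without 2-week library 2).

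The cystine transporter gene Slc7a11 had a difference of -4.30, with 0.407 and 0.796 and then 63.8 and 57.4 CPM in cortex (adjusted p = 0.000204, and 0.0502 in limma with library weights). Sox10, a factor of oligodendrocyte lineage cells, had -2.22, with 3.09 and 4.69 and then 11.7 and 14.3 CPM in midbrain and 4.65 and 6.68 and then 85.4 and 90.6 CPM in cortex (adjusted p = 0.0138, and 0.156 with an offset for transcript length, 0.0763 in limma with library weights, 0.127 when only the 8 libraries were fitted, 0.118 without 2-week library 1 and 0.0642 without 2-week library 2). The lipase gene Lpl had -2.38, with 7.03 and 8.75 and then 2.43 and 2.43 CPM in cortex (adjusted p = 0.0302, and 0.204 with an offset for transcript length, 0.1397 when only the 8 libraries were fitted, 0.0529 without mock library 1, 0.0602 without mock library 2, 0.0639 without 2-week library 1 and 0.194 without 2-week library 2). The Eph receptor gene Ephb1 had -3.19 (adjusted p = 0.0127, and 0.0613 with an offset for transcript length, 0.0955 when only the 8 libraries were fitted, 0.0626 without 2-week library 1 and 0.116 without 2-week library 2), the Wnt ligand gene Wnt8b -4.03 (adjusted p = 0.0390, and 0.115 with an offset for transcript length, 0.0556 with the replicate block, 0.582 in limma with library weights, 0.1397 when only the 8 libraries were fitted, 0.123 without 2-week library 1 and 0.185 without 2-week library 2) and the antisense gene D030055H07Rik, whose reads cannot be told apart from those of a gene on the other strand, -4.33 (adjusted p = 0.00677, and 0.127 in limma with library weights and 0.0526 without 2-week library 1). For Wnt8b the midbrain libraries went from 8.68 and 19.2 to 4.98 and 3.64 CPM and the cortex libraries from 0.349 and 0.239 to 1.87 and 1.30 CPM. The processed pseudogene Gm7565, with 52.3% of its 3′ end in other genes, had no read in cortex mock and 27.5 and 34.7 CPM in cortex at 2 weeks, so its fitted difference of -8.18 is no bound (adjusted p = 0.00613, and 0.449 in limma with library weights).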

How the results depend on the processing

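Of 236 named genes reported and tested against mock, 162 kept direction and side of the threshold in all 15 alternatives; over 3529 comparisons 3286 were unchanged, 217 lost the call, 19 gained it and 7 turned sign. The sign turned scaled to total reads for Aqp4 (-0.50) and Sfrp1 (-0.0313), and with an offset for transcript length for Id2 (-0.22), Cadps (0.37), Pam (0.25), mt-Nd6 (-0.26) and Pvalb (-1.25). The offset rests on Salmon's effective lengths, which exceeded the transcript length for 8.96 and 12.4% of transcripts in the mock libraries. At 2 weeks they did so for 19.8 and 19.9%. Higher and lower genes numbered 1167 and 5666 scaled to total reads, and 1405 to 2688 and 1019 to 2594 with 1 library left out. The response differed between regions for 168 genes with DESeq2, 318 with no count filter, 48 with the length offset, 62 with limma and library weights, 34 when only the 8 libraries of that comparison were fitted, and 33 to 104 with 1 library left out. Between 4 and 2 weeks 860 genes differed with no count filter, 3379 with limma, 3903 when only those groups were fitted, and 38 to 52 with 1 library left out. The cause of these shifts was not tested.

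The labels give groups the same replicate numbers. Replicate differences in midbrain mock and at 2 weeks did not go together (Pearson r over the 14607 genes tested -0.00802, as a description). The 2-week libraries differed over 2-fold for only 0.496% of 7862 genes with at least 5 CPM. With so little difference between them, this r cannot tell whether the numbers pair the samples. With the replicate block 2580 genes were higher and 2427 lower, 119 differed from cortex and 459 between 4 and 2 weeks. Same-numbered mock libraries of the regions did go together (r 0.715), and a replicate block within mock gave 4403 higher, 4407 lower, 1751 and 3607; it and limma with weights were chosen after seeing the data. A gene with 0 reads in one of the 4 libraries may have a level of up to 0.163 to 0.339 CPM, the limit that depth sets.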
